A study of Mus musculus with 25 samples.

Results

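The 3 melanomas described here grew under an antibody against CTLA-4 although they had the least pigment-gene RNA among the 6 tumours labelled non-responder, and they were compared with the 6 tumours whose size stayed stable under the same antibody. They are 3 of 25 tumours with 1 RNA library each. All came from B2905, also named M4, a mouse melanoma line implanted in C57BL/6 mice, and they are therefore tumours of 1 line, not of independent cancers. Of 40 implanted mice, 30 received anti-CTLA-4 and 5 received isotype IgG2b, both at 10 mg/kg and given 2 times a week for 2 weeks from an average tumour size of 75 mm3. The outcome in the labels was set 10 to 11 days after the last dose: non-responders kept growing (n = 6), stable tumours held their size (n = 6) and responders shrank (n = 8), and the 5 IgG2b tumours are called controls. The anti-CTLA-4 counts are of sequenced tumours, fewer than the 30 treated mice, so they are not response rates. Neither the age nor the sex of the mice, nor the size of each tumour, was given in the sources used here. Tumours are named by group and replicate number, and the pigment-low non-responders are non-responders 4, 5 and 6.

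CTLA-4 is a receptor on activated and regulatory T cells that takes the B7 ligands away from CD28 and so restrains T cell activation, and blocking it lets more T cells enter and act in a tumour. Interferon gamma from those T cells induces antigen presentation and chemokines such as Cxcl9. A growing tumour also needs blood vessels, whose walls are built of endothelial cells on a basement membrane with pericytes around them, and a piece of tumour holds RNA of all these cells beside that of the melanoma cells. The comparison addressed which transcripts separate growing from size-stable tumours when both hold T cell and interferon gene RNA.

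The tumours were chosen by measured values, the mean log2(CPM + 1) of Mlana, Pmel, Dct, Tyr and Tyrp1, which encode melanosome proteins and the enzymes of melanin synthesis. CPM is counts per M counts of the library. This pigment score was 6.59, 5.86 and 5.39 in non-responders 4, 5 and 6, the highest of which lies just inside the choice. Just outside it lay non-responder 1 at 8.78, followed by non-responders 2 and 3 at 9.79 and 10.5. The stable tumours scored from 1.55 to 4.41, so each of the 3 chosen tumours still had more pigment-gene RNA than every stable tumour. Tyrp1, for example, was at 549, 338 and 247 CPM against 3.97 to 145 CPM in the stable tumours, and Pmel at 147, 99.1 and 48.9 CPM against 2.05 to 24.5 CPM. Mlana alone overlapped, at 13.6, 9.54 and 6.92 CPM against 1.52 to 7.71 CPM. The word low therefore holds against the other non-responders and the controls (10.3 to 11.0), not against the stable tumours. These markers were used for the choice and carry no test.

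**Figure D1:**
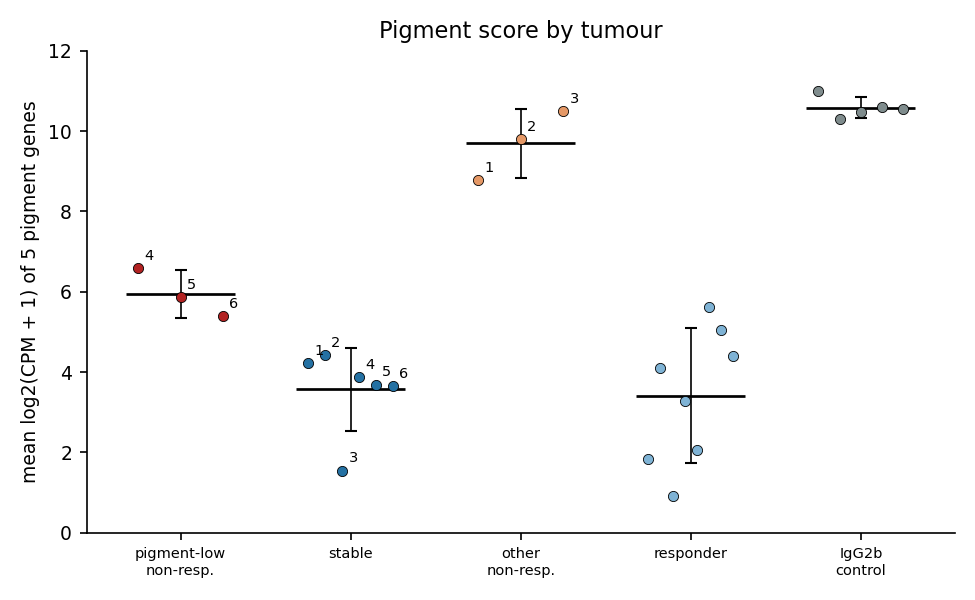
Pigment score of each of the 25 tumours, the mean log2(CPM + 1) of 5 pigment genes (y axis), by group (x axis); points are tumours, with replicate numbers for the anti-CTLA-4 stable and non-responder tumours, the black line is the group mean and the bar is the SD. The 3 pigment-low non-responders sit between the stable tumours and the other non-responders, and none overlaps either.

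The pigment-low libraries held 21.2 to 25.4 M counts and the stable ones 14.8 to 22.8 M. Mitochondrial ribosomal RNA took 0.783 to 0.980% of counts in the 3 pigment-low tumours and 1.31 to 7.28% in the stable ones. Of 6 library measures compared by exact two-sided permutation test over 84 arrangements (smallest possible p 0.0119), none had an adjusted p below 0.429, and for this share the exact p was 0.155 (adjusted p = 0.443). The first numbers in the sample descriptions were 7 to 9 for the 3 pigment-low tumours and 20 to 25 for the stable ones. The labels do not say what they number. If they follow processing order, that order and outcome cannot be told apart. Each library is labelled as a tumour of its own mouse.

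The genes that passed the test included the endothelial genes Robo4, Esam, Emcn, Egfl7 and Sox17, the pericyte gene Rgs5 and the basement membrane collagen gene Col18a1, all higher in the growing tumours. Of 18813 genes tested over the whole table, 21 were called at a Benjamini-Hochberg adjusted p below 0.05 in edgeR's quasi-likelihood test. All 21 were higher in the pigment-low non-responders (0.112% of the genes tested) and 0 were lower (0%), where DESeq2 called 89 lower and 150 higher. At an unadjusted p below 0.05, 1243 genes were higher (6.61%) and 917 lower (4.87%). The 21 were Robo4, Esam, Emcn, Egfl7, Sox17, Tmem88, Rgs5, Eln, Col18a1, Chrm2, Metrn, Col26a1, Ddah2, Mxd3, Scarb1, Kcnd3, Ccdc74a, Inka1, Ankrd50, Pcyox1l and 2310057J18Rik. In 19 of them the 3 pigment-low tumours all lay above the 6 stable ones on the scaled log2 CPM scale, as did 4.39% of all genes tested, and 3.11% lay below. The 21 were picked by p-value in these same tumours, so this separation adds no support. The calls sat close to the threshold and rested on few tumours. Every call was lost without non-responder 4 or non-responder 5, and without stable tumour 4, 5 or 6. Without stable tumour 2 only Robo4 and Tmem88 were called, without stable tumour 3 only Robo4, and without stable tumour 1 the count was 33. Leaving out non-responder 6 raised it to 233, of which 136 were higher (0.702% of 19364 tested) and 97 lower (0.501%), and 20 of the 21 were among them. All 21 were higher in each of these fits, which reuse the tumours in which the 21 were picked.

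Robo4, a roundabout receptor of endothelial cells, had the smallest adjusted p of all genes. It lies on chromosome 9, 37401897 to 37415115, plus strand of GRCm38. Its level was 17.1, 17.9 and 8.03 CPM in non-responders 4, 5 and 6, and ranged from 3.25 to 5.71 CPM around a median of 3.75 CPM in the 6 stable tumours. The groups did not overlap, and the lowest of the 3, non-responder 6, was the tumour nearest to the stable ones. The log2 difference was 1.72 (SE 0.26, adjusted p = 0.0199). It kept an adjusted p below 0.05 in 4 of the 9 fits that left out 1 tumour, with the log2 difference between 1.55 and 1.98. Esam, a junctional adhesion molecule of endothelial cells, lies 112962 bases further along the same chromosome (37528078 to 37538319, plus strand). It stood at 18.5, 13.7 and 7.95 CPM and ranged from 3.79 to 7.03 CPM around a median of 4.73 CPM in the stable tumours (log2 difference 1.37, SE 0.23, adjusted p = 0.0310).

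Emcn encodes endomucin, a sialoglycoprotein on the surface of capillary and venous endothelium (chromosome 3, 137341067 to 137432185, plus strand). Non-responders 4, 5 and 6 had 12.1, 11.9 and 4.88 CPM, and the stable tumours ranged from 1.76 to 5.02 CPM around a median of 3.38 CPM. Non-responder 6 was thus just under stable tumour 1 in CPM and above it on the scaled scale, while the other two had more than any stable tumour (log2 difference 1.48, SE 0.29, adjusted p = 0.0463). Egfl7 encodes a protein that endothelial cells secrete into the vessel wall (chromosome 2, 26580014 to 26593120, plus strand). Its levels were 42.1, 34.5 and 21.9 CPM against a stable range from 7.33 to 14.6 CPM around a median of 12.5 CPM, with no overlap (log2 difference 1.36, SE 0.28, adjusted p = 0.04996). The transcription factor Sox17, which acts in arterial endothelium (chromosome 1, 4490931 to 4497354, minus strand), was scarce throughout, at 2.72, 2.41 and 1.26 CPM against 0.468 to 0.668 CPM in the stable tumours. All 3 were above the stable range (log2 difference 1.77, SE 0.36, adjusted p = 0.0463). In a piece of tumour, more endothelial cells and more of these transcripts per cell cannot be told apart.

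Promoters of Robo4, Emcn and Egfl7 are shown, and those printed are ones that hold the letters described below. The genes were picked as called in the same direction. Each promoter runs from 250 bases before to 50 bases after a start listed by RefSeq for GRCm38.p6. Capitals mark AGGAAG, read on the listed strand, or CTTCCT, the same letters on the other strand. The letters hold the core that ETS family factors bind, several of which act in endothelial cells.
Robo4, chr9:37401722-37402021, plus strand: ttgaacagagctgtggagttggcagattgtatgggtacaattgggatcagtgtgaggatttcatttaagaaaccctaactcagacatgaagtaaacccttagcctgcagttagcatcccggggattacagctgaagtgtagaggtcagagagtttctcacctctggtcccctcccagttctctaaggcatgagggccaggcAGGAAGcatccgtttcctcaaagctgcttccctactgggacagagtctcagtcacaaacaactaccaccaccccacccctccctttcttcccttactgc
Emcn, chr3:137340828-137341127, plus strand: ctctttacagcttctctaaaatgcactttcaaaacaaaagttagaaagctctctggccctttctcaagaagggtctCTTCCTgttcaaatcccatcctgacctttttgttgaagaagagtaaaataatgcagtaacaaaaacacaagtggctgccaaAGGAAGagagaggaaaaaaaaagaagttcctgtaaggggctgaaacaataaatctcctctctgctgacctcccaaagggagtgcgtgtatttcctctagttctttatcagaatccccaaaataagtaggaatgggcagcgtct
Egfl7, chr2:26580833-26581132, plus strand: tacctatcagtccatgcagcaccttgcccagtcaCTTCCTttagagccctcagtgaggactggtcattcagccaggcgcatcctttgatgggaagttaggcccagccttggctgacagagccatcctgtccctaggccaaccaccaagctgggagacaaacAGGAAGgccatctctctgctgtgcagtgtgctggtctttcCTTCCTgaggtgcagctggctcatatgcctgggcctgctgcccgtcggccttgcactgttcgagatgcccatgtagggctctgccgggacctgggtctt
Robo4 has 1 such match, Emcn 2 and the first listed start of Egfl7 3, while its other listed starts have 2 and 0. Rgs5 has 0. Esam and Sox17 are named only. Of the 21 called genes, 14 were matched in the table with 18 promoters, of which 7 held the letters, beside 35.4% of 32851 promoters of the same length, so the match is common. It describes the letters and shows no bound site.

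In the rest of the series, Robo4, Esam, Emcn and Rgs5 had means in other non-responders and controls close to those of the pigment-low tumours. The means of Egfl7, Sox17, Col18a1 and Eln were highest in the pigment-low tumours. Robo4 averaged 14.4 ± 5.49 CPM (SD, n = 3) in the pigment-low non-responders, 12.6 ± 1.22 CPM (SD, n = 3) in the other non-responders and 11.2 ± 3.18 CPM (SD, n = 5) in the controls. In stable tumours and responders it averaged 4.12 ± 0.974 CPM (SD, n = 6) and 4.46 ± 2.04 CPM (SD, n = 8). Esam gave 13.4 ± 5.28 CPM (SD, n = 3), 12.5 ± 0.903 CPM (SD, n = 3) and 14.2 ± 2.91 CPM (SD, n = 5) in pigment-low non-responders, other non-responders and controls. In stable tumours and responders it gave 4.90 ± 1.17 CPM (SD, n = 6) and 4.87 ± 1.70 CPM (SD, n = 8). Emcn had a range of 8.48 to 13.9 CPM in controls and 0.454 to 3.43 CPM in responders. Protein-coding genes took 23.8 to 87.0% of counts in the responders and 83.8 to 89.2% in the stable tumours. CPM on column totals is lowered where that share is low, and the 0.454 CPM was in responder 1, at 23.8%. The responder means of these genes therefore carry this limit. Egfl7 averaged 32.8 ± 10.2 CPM (SD, n = 3) in the pigment-low non-responders, 24.2 ± 5.98 CPM (SD, n = 3) in the other non-responders and 22.8 ± 4.09 CPM (SD, n = 5) in controls. For Sox17 these means were 2.13, 1.204 and 1.84 CPM, for Col18a1 325, 228 and 226 CPM, and for Eln 216, 126 and 71.5 CPM, the first raised by non-responder 5. Against the controls, edgeR gave the pigment-low tumours a log2 difference of 0.33 (SE 0.28, adjusted p = 0.416) for Robo4, -0.10 (SE 0.24, adjusted p = 0.791) for Esam, -0.16 (SE 0.31, adjusted p = 0.740) for Emcn and 0.50 (SE 0.29, adjusted p = 0.217) for Egfl7. Col18a1 and Eln were higher than in controls, by 0.51 (SE 0.15, adjusted p = 0.0148) and 1.55 (SE 0.35, adjusted p = 0.00204). The other non-responders exceeded the same stable tumours by 1.52 for Robo4 (SE 0.26, adjusted p = 0.000203), 1.26 for Esam (SE 0.23, adjusted p = 0.000281) and 1.39 for Emcn (SE 0.29, adjusted p = 0.00124), while Col18a1 differed by 0.17 (SE 0.15, adjusted p = 0.453). These comparisons share their stable or pigment-low tumours with the one above, and pigment-low and other non-responders were not tested against each other.

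**Figure D2:**
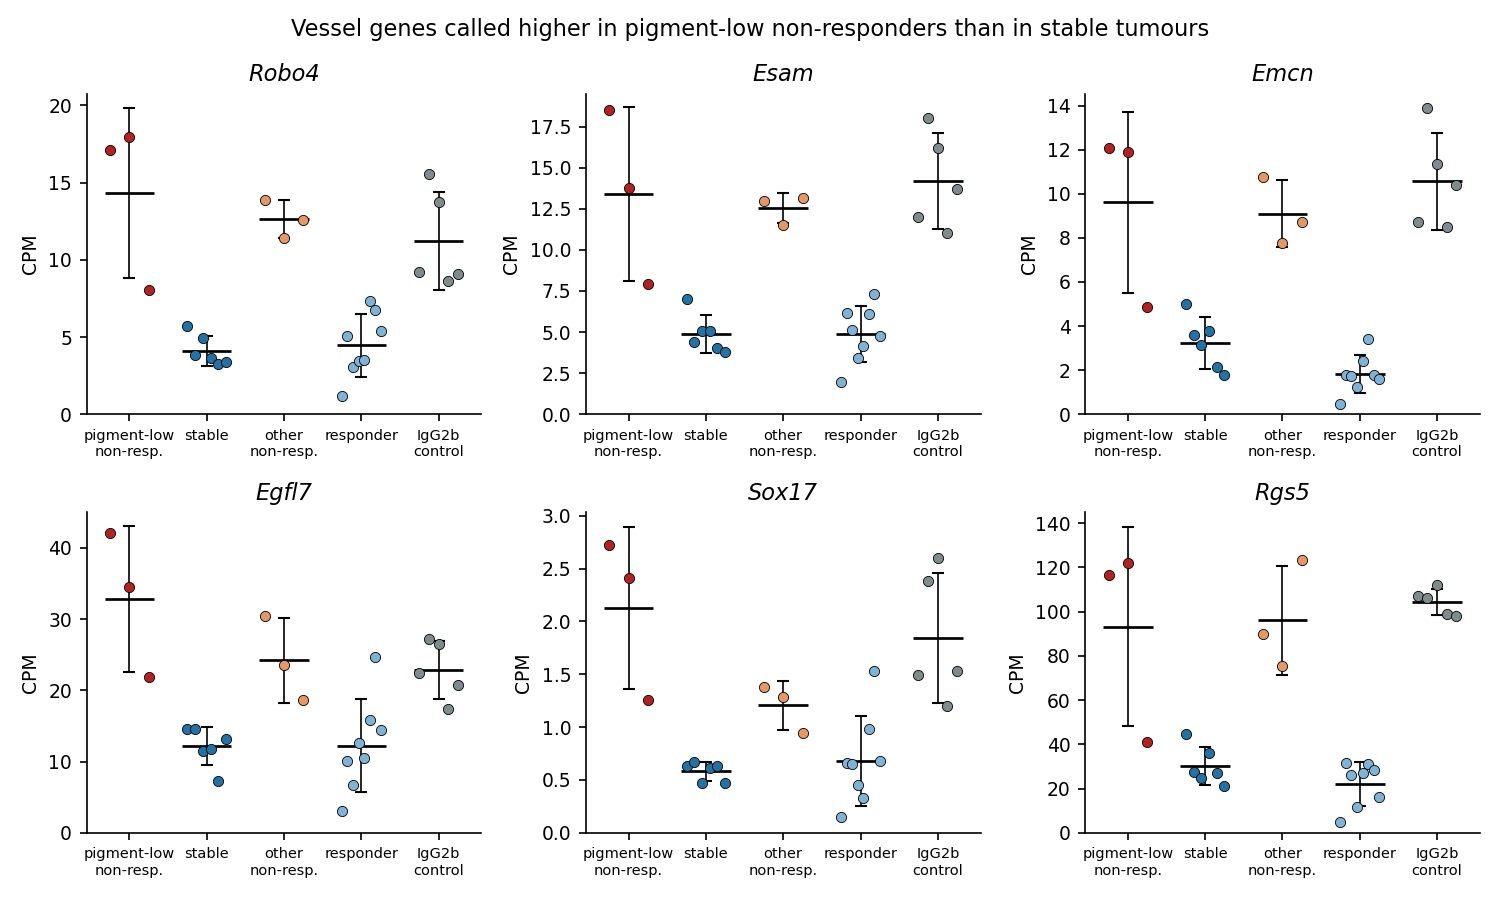
CPM (y axis, from 0) of 6 vessel genes in each of the 25 tumours by group (x axis); points are tumours, the black line is the mean and the bar is the SD. For Robo4, Esam, Egfl7 and Sox17 the 3 pigment-low non-responders lie above all 6 stable tumours, whereas Emcn and Rgs5 overlap them through non-responder 6.

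The endothelial list had 15 genes, all tested, of which 4 were called higher (Robo4, Esam, Emcn, Egfl7) and 0 lower, beside 0.112% and 0% of all genes tested. At an unadjusted p below 0.05, 10 were higher (6.61% of all genes) and 1 lower (4.87%), and the median log2 difference of 1.13 stood beside 0.00 over all genes tested. That median ranged from 0.90 to 1.33 over 12 alternatives. In 7 of the 15 the 3 pigment-low tumours were all above the stable ones, beside 4.39% of all genes. The number called was 0 without non-responder 4 or 5 or stable tumour 4, 5 or 6, where 0 of all genes were called. It was 1 without stable tumour 2 or 3, where 2 of 18795 and 1 of 18821 genes tested were called higher. It was 6 without stable tumour 1, where 31 of 18821 were called higher. Without non-responder 6 it was 8, beside 0.702% of 19364 genes called higher. The mean log2 CPM of the list was 5.11, 4.86 and 4.39 in non-responders 4, 5 and 6, and 3.60 to 4.29 in the stable tumours, so every pigment-low tumour was above. It was 4.22 to 4.56 in the other non-responders, 4.05 to 4.61 in controls and 3.01 to 3.95 in responders.

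Several vessel receptors fell short of the call. Kdr, the main VEGF receptor of endothelium, was at 106, 84.5 and 36.9 CPM, with 16.8 to 40.6 CPM in stable tumours (log2 difference 1.53, SE 0.34, adjusted p = 0.0828). Only non-responder 6 lay inside the stable range. Tie1 and Cdh5, the latter the cadherin of endothelial junctions, showed the same arrangement. Tie1 had 42.1, 38.3 and 18.9 CPM against 10.1 to 23.0 CPM (adjusted p = 0.103), and Cdh5 had 68.1, 61.6 and 27.2 CPM against 16.1 to 36.3 CPM (adjusted p = 0.144). Erg, an ETS factor of endothelium, was at 10.6, 10.1 and 5.90 CPM against at most 5.27 CPM in stable tumours, with no overlap (adjusted p = 0.110). The list was not uniform. Pecam1, an adhesion molecule that leukocytes carry as well, had a log2 difference of 0.45 (adjusted p = 0.449), and Eng, a TGF-beta co-receptor, one of 0.06 (adjusted p = 0.932). Vwf, the clotting factor carrier stored in endothelium, differed by -0.01 (adjusted p = 0.996). Flt1, the decoy-like VEGF receptor, went the other way, at 78.7, 71.4 and 117 CPM against 112 to 189 CPM (log2 difference -0.70, SE 0.28, adjusted p = 0.329). Non-responder 6 alone overlapped the stable tumours.

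The 9 genes of leukocyte adhesion to vessels did not share the direction of the endothelial list. Their median log2 difference was -0.61 (-0.38 without stable tumour 3), and 0 were called. Itgal, the leukocyte integrin that binds Icam1, was at 65.6, 82.3 and 80.7 CPM against 82.0 to 143 CPM (adjusted p = 0.447), which overlapped only through non-responder 5 and stable tumour 4. Icam2, which endothelium carries constitutively, was at 6.62, 5.52 and 5.11 CPM against 2.77 to 3.80 CPM (adjusted p = 0.309), all 3 above. Vegfa, the ligand of Kdr and Flt1, had 68.0, 72.8 and 98.4 CPM against 75.4 to 114 CPM (log2 difference -0.35, SE 0.27, adjusted p = 0.647).

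Of the wall around the endothelium, single genes were called and the lists were not shifted. Rgs5, a regulator of G protein signalling that marks pericytes (chromosome 1, 169655501 to 169695813, plus strand), was at 116, 122 and 41.2 CPM, and the stable tumours ranged from 21.2 to 44.8 CPM around a median of 27.3 CPM. Non-responders 4 and 5 were more than 2 times any stable tumour and non-responder 6 lay inside their range (log2 difference 1.53, SE 0.29, adjusted p = 0.0463). The controls had 97.8 to 112 CPM. Eln, which encodes elastin (chromosome 5, 134702593 to 134747323, minus strand), was at 141, 455 and 52.9 CPM and ranged from 44.1 to 78.8 CPM around a median of 61.0 CPM in stable tumours. Non-responder 5 was far above the rest and non-responder 6 overlapped (log2 difference 1.75, SE 0.34, adjusted p = 0.0463), and the log2 difference was 0.64 without non-responder 5 (adjusted p = 0.853). Col18a1, a basement membrane collagen whose end fragment is endostatin (chromosome 10, 77052178 to 77166548, minus strand), was at 392, 332 and 252 CPM and ranged from 169.8 to 220.5 CPM around a median of 182 CPM, with no overlap (log2 difference 0.73, SE 0.15, adjusted p = 0.0463).

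The fibroblast and pericyte list had 19 genes, of which 1 was called higher (Rgs5), beside 0.112% of all genes. Its median log2 difference of -0.14 changed sign without non-responder 6 (0.03). The 19 collagen genes also had 1 called higher (Col18a1), beside the same 0.112%. Their median log2 difference was -0.05, and 0.17 without non-responder 6. Col1a1 was at 3442, 4979 and 1069 CPM against 1840.3 to 4802 CPM, and Col3a1 at 7401, 5601 and 2979.8 CPM against 3218 to 7946 CPM. In both, non-responder 6 was below every stable tumour and the other two were within or near their range. The pericyte receptor gene Pdgfrb was at 189.6, 250.1 and 128 CPM against 161 to 199 CPM (adjusted p = 0.991). Among 16 TGF-beta genes 0 were called and 6 were lower at an unadjusted p below 0.05, beside 4.87% of all genes. Their median log2 difference was -0.38. Inhba, the activin A subunit, was at 24.4, 24.8 and 46.8 CPM against 46.7 to 153 CPM (adjusted p = 0.197), and Bgn, the matrix proteoglycan biglycan, at 467, 487 and 384 CPM against 486 to 694 CPM (adjusted p = 0.506), where non-responder 5 was level with the lowest stable tumour and the others were below. Tgfb1 itself was at 39.1, 53.7 and 32.8 CPM against 45.6 to 63.4 CPM (log2 difference -0.48, SE 0.21, adjusted p = 0.379).

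The remaining called genes came from no list. Tmem88, an inhibitor of Wnt signalling at the membrane, was at 2.90, 3.16 and 1.89 CPM against 0.534 to 1.23 CPM (log2 difference 1.70, SE 0.31, adjusted p = 0.0463). Chrm2, a muscarinic acetylcholine receptor gene, was at 5.67, 5.71 and 0.787 CPM and ranged from 0 to 0.439 CPM around a median of 0.153 CPM in stable tumours, where 2 had no counts (log2 difference 4.34, SE 0.84, adjusted p = 0.0463). Its fitted difference rests on very few counts in the stable tumours. Metrn, which encodes the secreted factor meteorin, was at 85.2, 78.6 and 65.2 CPM against 22.2 to 42.6 CPM (log2 difference 1.26, SE 0.25, adjusted p = 0.0463), all 3 above. Metrn was higher still in the tumours rich in pigment, at 149 to 189 CPM in the other non-responders and 201 to 233 CPM in controls. The other 10 called genes fall outside the rule for naming genes and are named after their values were seen. Mxd3, a MAX-binding repressor expressed in dividing cells, was at 8.20, 10.3 and 9.29 CPM against 3.51 to 5.39 CPM (log2 difference 0.98, SE 0.19, adjusted p = 0.0463). Scarb1, the receptor for high-density lipoprotein, was at 87.1, 99.5 and 69.9 CPM against 36.2 to 62.9 CPM (log2 difference 0.76, SE 0.15, adjusted p = 0.0463). In Ddah2, Ankrd50, Inka1 and Pcyox1l the log2 differences were 0.75, 0.82, 1.18 and 1.17. Col26a1, Kcnd3, Ccdc74a and 2310057J18Rik were each below 1 CPM in every stable tumour and gave 4.32, 3.01, 1.91 and 3.89. Mxd3, Scarb1 and 2310057J18Rik shared the arrangement of Metrn, with more RNA again in the tumours rich in pigment. Mxd3 averaged 9.28, 14.4 and 16.6 CPM in the pigment-low non-responders, the other non-responders and the controls, Scarb1 85.5, 130 and 135 CPM, and 2310057J18Rik 4.37, 180 and 166 CPM.

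No gene was called lower, and the 10 of smallest p in that direction are given as values. Bhlhe41, a transcriptional repressor of the circadian clock, came nearest, at 8.38, 13.5 and 14.3 CPM against 17.7 to 33.6 CPM (log2 difference -1.07, SE 0.22, adjusted p = 0.0506). Fmo2, a flavin monooxygenase, was at 6.21, 6.61 and 7.04 CPM against 9.90 to 27.1 CPM (log2 difference -1.69, SE 0.36, adjusted p = 0.0736). All 3 pigment-low tumours were below all stable ones in each of the 10, beside 3.11% of all genes tested. The 10 were picked by p-value in these same tumours, so this separation adds no support. P3h2, a collagen prolyl hydroxylase, was at 161, 167 and 179 CPM against 231 to 304 CPM (log2 difference -0.75, SE 0.17, adjusted p = 0.0766), and Malt1, a signalling protease of lymphocytes, at 50.9, 52.4 and 88.6 CPM against 91.5 to 125 CPM (log2 difference -0.78, SE 0.19, adjusted p = 0.110). Pgd, an enzyme of the pentose phosphate pathway, was at 62.8, 60.3 and 73.3 CPM against 81.6 to 112 CPM (adjusted p = 0.103). Nudt18, Ttc39b, Ip6k3, Cpeb4 and Celsr3 had log2 differences of -0.85, -0.50, -1.11, -0.43 and -1.63, with adjusted p from 0.0907 to 0.118.

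The cell division lists had higher means in the growing tumours, and no member of them was called. Of 26 genes of mitosis and the spindle, 0 were called, all 26 had a positive difference and 17 were higher at an unadjusted p below 0.05, beside 6.61% of all genes (median log2 difference of 0.54, 0.40 to 0.67 over 12 alternatives). In 12 of them the 3 pigment-low tumours were all above the stable ones, beside 4.39% of all genes. The list mean in log2 CPM was 5.04, 5.25 and 5.00 in non-responders 4, 5 and 6 and 3.70 to 4.98 in stable tumours, which left no overlap but a narrow gap. In the other non-responders it was 5.64 to 6.21. Cdc20, the activator of the anaphase-promoting complex, was at 26.2, 28.4 and 20.7 CPM against 6.90 to 17.7 CPM (log2 difference 0.77, SE 0.22, adjusted p = 0.180), all 3 above. Ccnb1, the mitotic cyclin, was at 40.2, 42.5 and 37.4 CPM against 9.53 to 28.4 CPM (log2 difference 0.73, SE 0.28, adjusted p = 0.305), and Top2a, the topoisomerase of dividing cells, at 208, 215 and 202 CPM against 97.5 to 191 CPM (log2 difference 0.41, SE 0.20, adjusted p = 0.446). Mki67, the proliferation marker, overlapped, at 295, 424 and 232 CPM against 134 to 282 CPM (log2 difference 0.40, SE 0.22, adjusted p = 0.506). With all 6 non-responders taken by label, which keeps these 9 tumours and where 7.86% of 18031 genes were called higher and 7.08% lower, 25 of the 26 were called higher.

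The 25 DNA replication genes had 0 called and 24 positive differences, with a median log2 difference of 0.33. At an unadjusted p below 0.05, 11 of these genes were higher, beside 6.61% of all genes. Their mean was 4.40, 4.46 and 4.38 against 3.82 to 4.28 in stable tumours, without overlap. Mcm7, a subunit of the replicative helicase, was at 63.0, 63.8 and 46.1 CPM against 25.3 to 39.5 CPM (log2 difference 0.67, SE 0.15, adjusted p = 0.0853), all 3 above, and was called without non-responder 6 (adjusted p = 0.0392). Mcm5, of the same helicase, was at 51.3, 55.8 and 38.5 CPM against 22.6 to 32.4 CPM (log2 difference 0.69, SE 0.19, adjusted p = 0.161). Pcna, the sliding clamp, was at 84.0, 77.3 and 90.2 CPM against 65.3 to 89.8 CPM (log2 difference 0.03, SE 0.28, adjusted p = 0.985), which overlapped throughout. By label, 19 of the 25 were called higher in all 6 non-responders, beside 7.86% of all genes. In the other 3 non-responders the list mean was 4.89 to 5.41, above the pigment-low tumours.

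**Figure D3:**
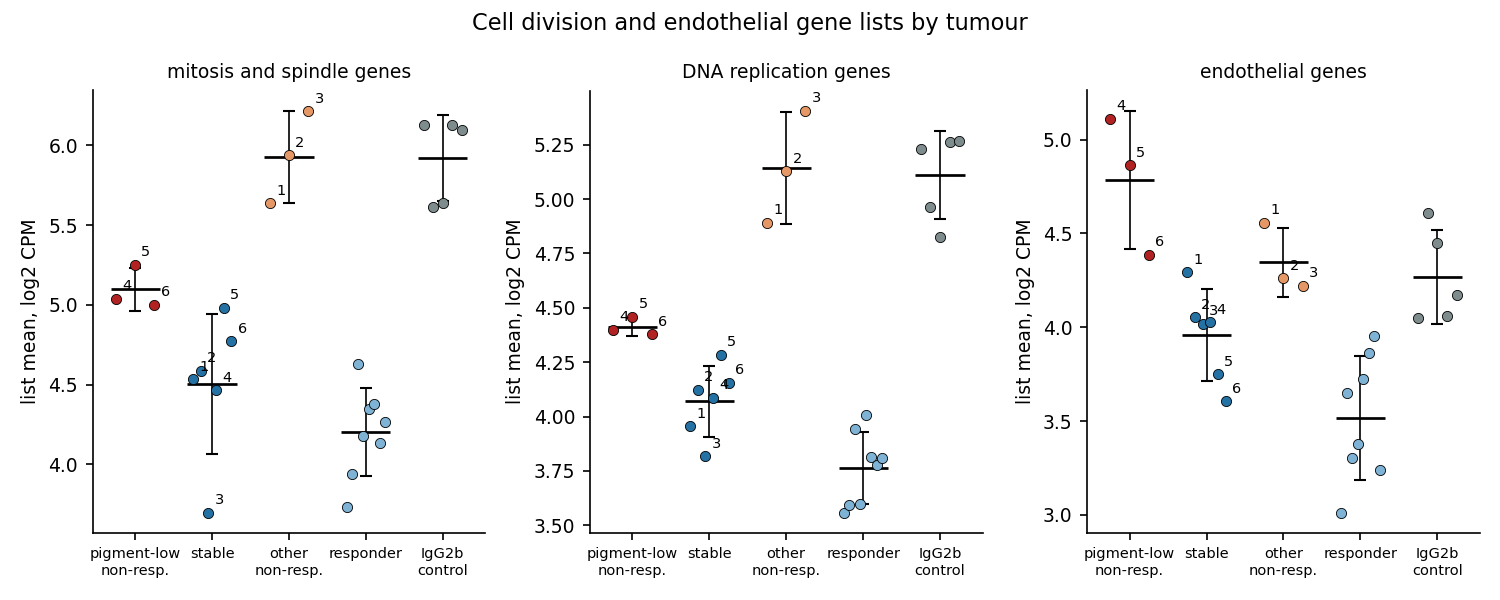
Mean log2 CPM (y axis) of the mitosis, DNA replication and endothelial gene lists in each of the 25 tumours by group (x axis); points are tumours, with replicate numbers for stable and non-responder tumours, the black line is the mean and the bar is the SD. In each list the 3 pigment-low non-responders lie above the 6 stable tumours, narrowly so for mitosis.

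The immune lists bear on whether both groups were inflamed. For the T cell receptor list of 16 genes the mean log2 CPM was 3.53, 3.61 and 4.17 in non-responders 4, 5 and 6, 3.91 to 4.47 in stable tumours, 1.39 to 2.97 in the other non-responders and 0.17 to 1.67 in controls. The 3 pigment-low tumours lay above every control, and non-responders 4 and 5 lay below every stable tumour. No member was called, and all 16 differences were negative (median log2 difference of -0.39, which was -0.63 without non-responder 6 and -0.26 without non-responder 5). The 26 interferon gamma response genes had means of 6.75, 6.31 and 7.58 against 7.19 to 7.52 in stable and 4.30 to 5.31 in control tumours. Non-responder 6 was above all stable tumours and the other two below them. Here too no member was called and all 26 differences were negative (median log2 difference of -0.29). That median was -0.77 without non-responder 6, which left only non-responders 4 and 5 in the group. It was -0.17 without non-responder 4 and -0.04 without non-responder 5. Non-responder 1, which the pigment rule left out, had a mean of 6.73 on this list, between non-responders 4 and 5.

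Among T cell genes, Cd8a, a subunit of the CD8 co-receptor, was at 34.7, 32.7 and 50.3 CPM against 18.7 to 57.5 CPM (log2 difference 0.21, SE 0.44, adjusted p = 0.905). Cd4 was at 29.1, 31.0 and 31.0 CPM against 32.4 to 45.7 CPM, all 3 below but without a call (log2 difference -0.44, SE 0.28, adjusted p = 0.558). Foxp3, the factor of regulatory T cells, was at 4.96, 9.34 and 3.20 CPM against 4.99 to 11.2 CPM (log2 difference -0.40, SE 0.43, adjusted p = 0.777), and Ctla4, the target of the antibody, at 5.08, 7.08 and 10.7 CPM against 10.0 to 18.3 CPM (log2 difference -0.88, SE 0.39, adjusted p = 0.383). Both overlapped. The granzyme gene Gzmb was at 23.5, 11.9 and 81.5 CPM against 28.3 to 53.4 CPM (log2 difference -0.06, SE 0.55, adjusted p = 0.984), and the pore-forming Prf1 at 7.71, 7.22 and 23.4 CPM against 14.6 to 23.6 CPM (log2 difference -0.53, SE 0.45, adjusted p = 0.689). Non-responder 6 was the highest of all 9 tumours in Gzmb and non-responders 4 and 5 were the lowest. Ifng was at 3.77, 1.43 and 8.51 CPM against 5.19 to 9.38 CPM (log2 difference -0.52, SE 0.60, adjusted p = 0.791). The 19 genes of the CD8 and cytotoxic list had 0 called with a median log2 difference of -0.30. Without non-responder 6 the median was -1.15 and 2 were called lower (Gzmf and Gzmd, both granzyme genes), beside 0.501% of all genes. Without non-responders 4 and 5 the median was -0.17 and -0.09. Pdcd1, the gene of PD-1, was at 5.98, 5.33 and 9.29 CPM against 6.27 to 7.78 CPM (log2 difference -0.12, SE 0.38, adjusted p = 0.944). Its ligand gene Cd274 was at 98.6, 68.9 and 198 CPM against 172 to 401 CPM (log2 difference -1.02, SE 0.33, adjusted p = 0.223), where non-responders 4 and 5 were below every stable tumour, and it was called lower without non-responder 6 (adjusted p = 0.0369).

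Antigen presentation and chemokine genes had the same order of tumours. The 11 MHC class II genes had 0 called and 11 negative differences, with means of 7.23, 6.95 and 8.18 against 7.84 to 8.51 (median log2 difference of -0.54, and -1.04 without non-responder 6). H2-Aa, an MHC class II chain, was at 1417, 1027 and 2354 CPM against 2025 to 2832 CPM (log2 difference -0.63, SE 0.42, adjusted p = 0.591), and B2m, the light chain of class I, at 2532, 1709 and 3883 CPM against 2732 to 3629 CPM (log2 difference -0.26, SE 0.41, adjusted p = 0.858). Cxcl9, the interferon gamma-induced ligand of Cxcr3, was at 373, 293 and 579.6 CPM against 504 to 604 CPM (log2 difference -0.43, SE 0.44, adjusted p = 0.754). Ccl5, a T cell attracting chemokine, was at 57.8, 32.7 and 105 CPM against 122 to 183 CPM, all 3 below (log2 difference -1.27, SE 0.51, adjusted p = 0.339). In H2-Aa, B2m and Cxcl9 non-responders 4 and 5 were below the stable range and non-responder 6 was within or above it.

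**Figure D4:**
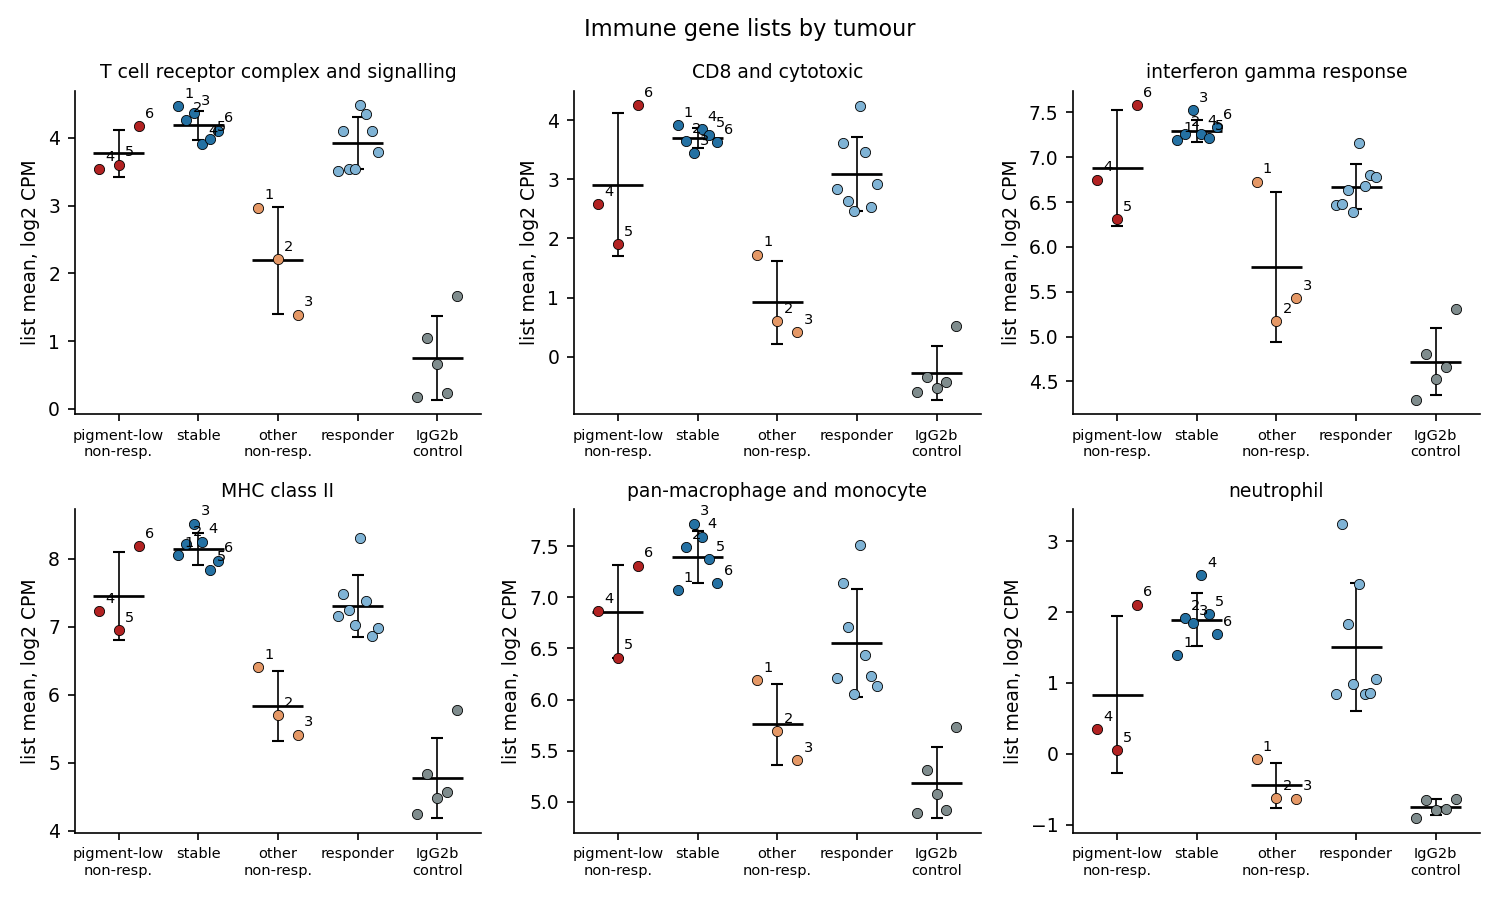
Mean log2 CPM (y axis) of 6 immune gene lists in each of the 25 tumours by group (x axis); points are tumours, with replicate numbers for stable and non-responder tumours, the black line is the mean and the bar is the SD. Non-responder 6 lies within or above the stable range in all 6 lists, while non-responders 4 and 5 lie below it and above the controls.

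Among myeloid genes, non-responder 6 stood apart from the other two. The neutrophil list of 18 genes had means of 0.35, 0.05 and 2.10 against 1.39 to 2.52 in stable tumours, 0 called, 18 negative differences and a median log2 difference of -0.92. Without non-responder 6 the median was -2.27 and 3 were called lower (Il1b, Clec4e and Clec4d), beside 0.501% of all genes. Without non-responder 5 the median was -0.53. Clec4e, a C-type lectin of neutrophils and monocytes, was at 11.6, 7.13 and 71.3 CPM against 42.1 to 77.1 CPM (log2 difference -0.97, SE 0.54, adjusted p = 0.506). Chil3, a chitinase-like protein of myeloid cells, was at 10.6, 1.18 and 255 CPM against 181 to 1312 CPM (log2 difference -2.92, SE 1.46, adjusted p = 0.453). The 2 lowest values of both genes were those of non-responders 4 and 5. The 18 macrophage and monocyte genes had means of 6.86, 6.41 and 7.31 against 7.07 to 7.72 and 0 called (median log2 difference of -0.38). That median was -0.62 without non-responder 6, where Fcgr2b was called lower, and -0.24 without non-responder 5. Lyz2, the lysozyme of myeloid cells, was at 2529, 1571 and 6619.8 CPM against 4824 to 7277 CPM (log2 difference -0.76, SE 0.46, adjusted p = 0.542), and Mrc1, the mannose receptor, at 384, 209 and 187 CPM against 225 to 338 CPM (log2 difference -0.19, SE 0.33, adjusted p = 0.874).

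Of 19 suppressive enzymes and cytokines, 0 were called and 6 were lower at an unadjusted p below 0.05, beside 4.87% of all genes. The median log2 difference was -0.57. Arg1, the arginase of myeloid cells, spanned 40.5, 8.36 and 382 CPM against 110.1 to 437 CPM (log2 difference -0.88, SE 0.89, adjusted p = 0.753). Nos2, the inducible nitric oxide synthase, was at 33.0, 11.8 and 114 CPM against 93.4 to 271 CPM (log2 difference -1.60, SE 0.59, adjusted p = 0.290). Non-responder 6 lay inside the stable range of both, and the other two below it. Nos2 was called lower without non-responder 6 (adjusted p = 0.0392). The complement gene C3 was at 1192, 570.3 and 3160.2 CPM against 3046 to 5230.1 CPM (log2 difference -1.21, SE 0.60, adjusted p = 0.451).

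Type I interferon antiviral genes went against the other immune lists. Their 21 members had 0 called but 21 positive differences, with a median log2 difference of 0.48 (0.33 to 0.56 over 12 alternatives). At an unadjusted p below 0.05, 3 members were higher, beside 6.61% of all genes. The means were 5.73, 5.43 and 5.78 in non-responders 4, 5 and 6 against 4.85 to 5.52, with non-responder 5 inside the stable range. In the other non-responders they were 4.56 to 6.19, the highest above all 3 pigment-low tumours, and in controls 4.30 to 5.11. Cmpk2, an interferon-induced mitochondrial kinase, was at 65.2, 47.7 and 47.6 CPM against 21.3 to 28.9 CPM (log2 difference 1.04, SE 0.31, adjusted p = 0.195), all 3 above. Irf7, the factor that amplifies type I interferon, was at 107, 97.1 and 90.7 CPM against 44.8 to 69.7 CPM (log2 difference 0.72, SE 0.32, adjusted p = 0.393). Ifit1, which binds viral RNA, was at 90.0, 71.3 and 79.0 CPM against 32.7 to 57.4 CPM (log2 difference 0.82, SE 0.33, adjusted p = 0.330). Cmpk2 was also 1 of 4 genes called when only the 9 tumours were fitted (log2 difference 1.04, adjusted p = 0.0403), beside Dhrs3, Tnn and B4galnt3.

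Mast cell genes were the other immune list with a positive median. Of 11 members 0 were called and 3 were higher at an unadjusted p below 0.05, beside 6.61% of all genes. The median log2 difference was 0.91. The list means were 3.17, 2.94 and 2.59 log2 CPM in non-responders 4, 5 and 6 against 1.62 to 2.77 in stable tumours, so non-responder 6 overlapped. They were 2.82 to 3.60 in the other non-responders and 2.08 to 3.33 in controls. Gata2 was called higher without non-responder 6 (adjusted p = 0.0369). Cma1, a mast cell chymase, was at 26.2, 22.5 and 13.8 CPM against 4.89 to 13.5 CPM (log2 difference 1.27, SE 0.43, adjusted p = 0.249), all 3 above. Tpsb2, a tryptase, was at 32.9, 28.9 and 24.2 CPM against 7.53 to 29.6 CPM (log2 difference 0.81, SE 0.43, adjusted p = 0.481), and Kit, the stem cell factor receptor that melanocytes share, at 21.8, 22.1 and 18.7 CPM against 21.2 to 29.3 CPM (log2 difference -0.26, SE 0.22, adjusted p = 0.684). The eosinophil list of 7 genes had a median log2 difference of -1.21 and 0 called. That median was -2.28 without non-responder 6 and -0.75 without non-responder 5.

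Melanocyte genes outside the rule followed the pigment markers. The rule took the 3 lowest of 6 non-responders, which narrows the pigment difference from the stable tumours and does not make it. Of 19, 0 were called and 10 were higher at an unadjusted p below 0.05, beside 6.61% of all genes. The median log2 difference was 0.68. Sox10, the lineage factor of neural crest and melanocytes, was at 284, 321 and 249 CPM against 127 to 274 CPM (log2 difference 0.55, SE 0.21, adjusted p = 0.312). The pigment score chose the tumours and separates both groups completely, so a fit with the score as a covariate cannot be read for or against any gene. The 5 genes called in that fit were Rnu1a1, a spliceosomal RNA gene, and 4 predicted genes, Gm26444, Gm23804, Gm22068 and Gm22634, which shared its fold change and may share its reads. Hgf and Met, a ligand and its receptor kinase, differed by -0.53 (adjusted p = 0.492) and 0.19 (adjusted p = 0.899) on the log2 scale. The 16 genes of MAPK output had a median log2 difference of 0.19 (0.08 without non-responder 5) and 0 called.

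Stress genes were not called in either direction with all 9 tumours. The 24 hypoxia and glycolysis genes had a median log2 difference of -0.36, and Hk2, a hexokinase, was at 60.7, 47.0 and 115 CPM against 107 to 252 CPM (log2 difference -1.17, SE 0.37, adjusted p = 0.220). Non-responder 6 lay inside the stable range and the other two below it. Without non-responder 6 the list median was -0.85 and Hk2 was called lower (adjusted p = 0.0492), as were 0.501% of the genes tested in that fit. The median was -0.25 without non-responder 4 and -0.13 without non-responder 5. The 16 stress-response genes had a median log2 difference of -0.43, with Ppp1r15a, which restores translation after stress, at 13.7, 14.5 and 22.8 CPM against 17.6 to 45.5 CPM (log2 difference -0.96, SE 0.31, adjusted p = 0.220). Trib3, a pseudokinase of that response, was called lower without non-responder 6 (adjusted p = 0.0448), where the median was -0.63. Nuclear oxidative phosphorylation genes had a median of 0.05, which was -0.18 without non-responder 6, and p53 target genes one of -0.19, which was -0.04 without stable tumour 3.

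Genes of tissue around the tumour gave no call. The 14 skeletal muscle genes had means of 6.34, 4.71 and 5.25 against 4.35 to 5.99 log2 CPM in stable tumours, the 10 adipocyte genes 3.01, 1.50 and 3.39 against 1.43 to 4.10, and the 10 Schwann cell genes 4.11, 4.12 and 3.79 against 3.72 to 4.13. The 15 keratinocyte and hair genes ranged widely, with 0.30, 4.37 and -1.46 against 0.11 to 3.31, and Krt71 was at 0 counts in non-responder 6 and 795 CPM in stable tumour 2. Red blood cell genes moved in the direction of the vessel genes. Their mean was 2.31, 2.05 and 1.40 in non-responders 4, 5 and 6 and 0.83 to 1.39 in stable tumours, with 0 of 6 called. Hbb-bs, a haemoglobin chain gene, was at 48.6, 25.1 and 18.8 CPM against 11.3 to 19.7 CPM (log2 difference 0.97, SE 0.51, adjusted p = 0.480). The part of blood in the vessel result was not tested.

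**Figure D5:**
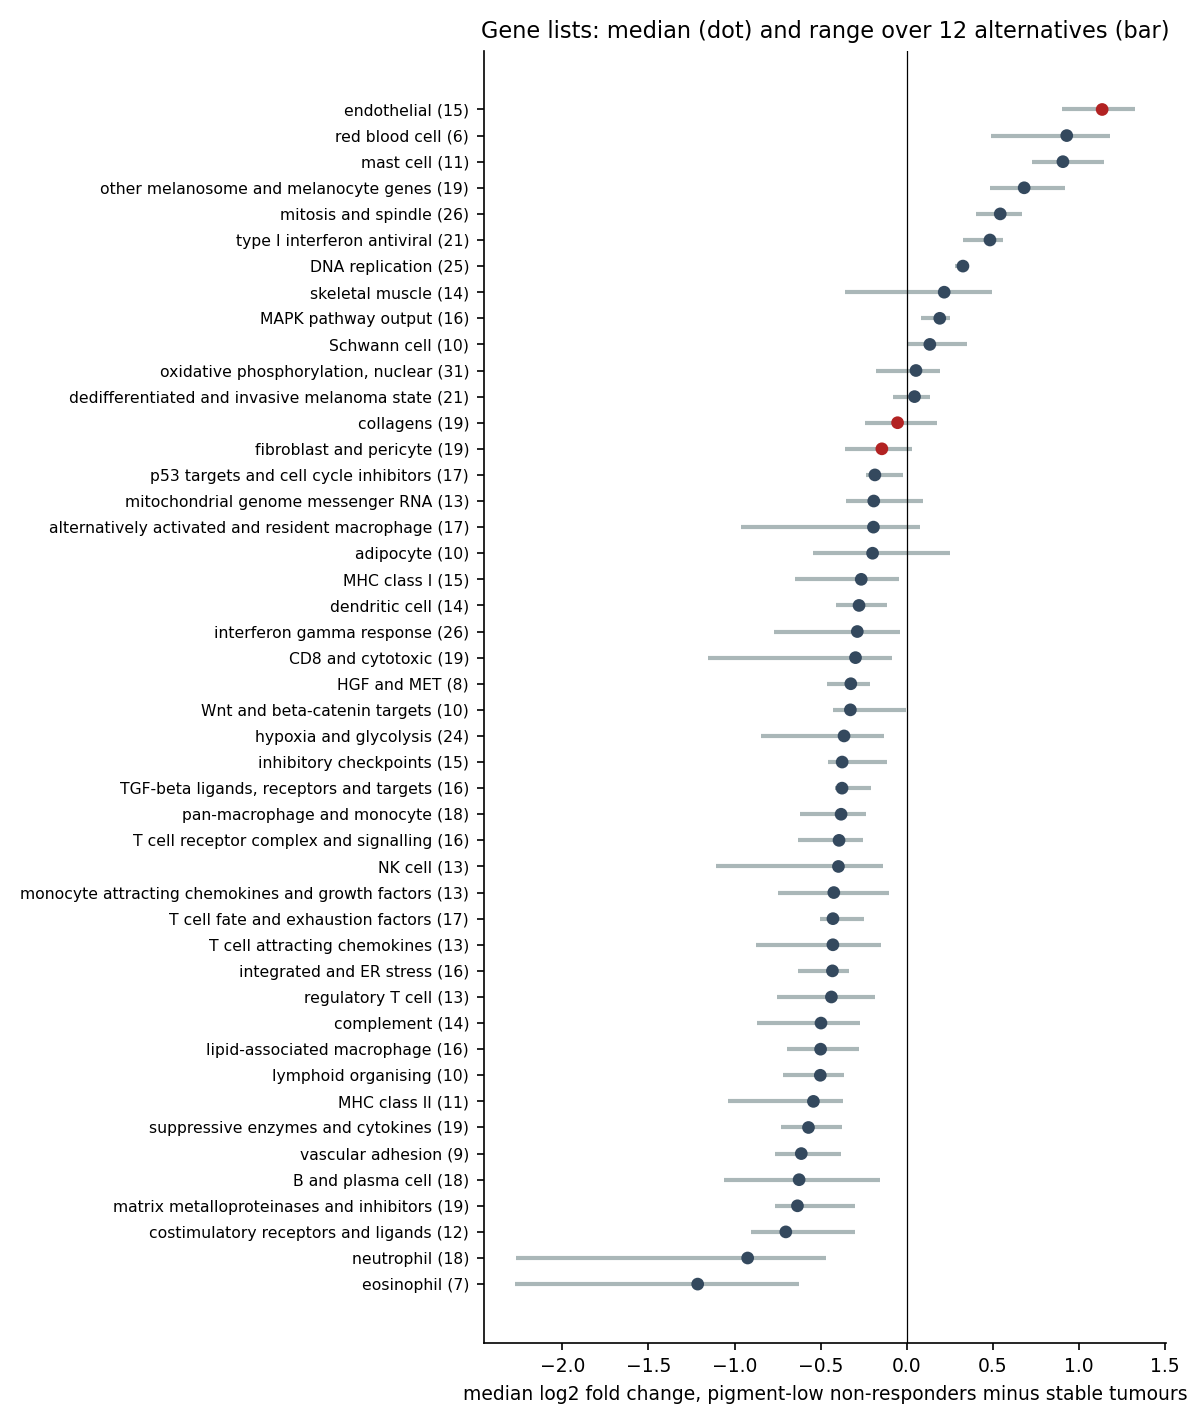
Median log2 fold change, pigment-low non-responders minus stable tumours (x axis), of 46 gene lists (y axis, with the number of genes tested); dots are medians, red where the list had a called gene, and grey bars are the range over 12 alternatives (11 for the mitochondrial list). The endothelial list has the highest median, 1.13, and the keratinocyte and hair list (0.26) is left out because its range reaches -3.99.

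Across the 47 lists, 34 had a negative median and 3 held a called gene, which were the endothelial, fibroblast and pericyte, and collagen lists. The share of mitochondrial ribosomal RNA was lower in all 3 pigment-low tumours than in every stable one. With that share as a covariate 0 genes were called, all 21 were still higher, and the largest of their adjusted p values was 0.0947. Because the share separates the groups completely, that fit cannot be read for or against any gene.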

How the data were processed

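Bulk RNA libraries of 25 tumours were used, with a kit for stranded total RNA per the labels' protocols, although polyA RNA is entered as the molecule, which was not resolved. The authors deposited expected counts, estimated per gene and left without scaling, for 55450 genes, of which 5.64% of values had a fractional part. The submitters' processing notes list bcl2fastq 2.17, Trimmomatic, STAR 2.5.1, RSEM 1.2.22 and the build mm10, with no role or order. All 55450 gene identifiers matched GENCODE M21, which gave symbols and GRCm38 coordinates. The authors also deposited RPKM values, with gene lengths not given in the sources used here. No column belonged to another sample, and no replicates shared a library (smallest chi-square per gene 17.07).

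Expected counts were rounded to whole numbers. The pigment rule was applied to CPM on column totals, and RPKM or TMM-scaled CPM chose the same 3 tumours. Genes were filtered by filterByExpr over 5 groups (pigment-low and other non-responders, stable, responder, control), leaving 18813, and tested with edgeR 4.0.16 in R 4.3.3 (TMM, robust quasi-likelihood F test, no covariate, 20 residual degrees of freedom, two-sided, Benjamini-Hochberg over all genes, called below 0.05). All 25 tumours entered the fit and shared the dispersion estimate. Standard errors were derived from each fold change and its F statistic. The procedure was tested on simulated data. List means are over scaled log2 CPM with a prior count of 2, in which 47 lists held 766 symbols, 4 of them not in the table. Single library measures were compared by exact permutation test.

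Named genes are the called protein-coding genes with at least 1 CPM on average over the 9 tumours that had the 10 highest or lowest fold changes, filled to 10 by the smallest p, leaving out predicted genes, receptor segments and pigment markers. Added to these are up to 3 called and the 2 most abundant genes of each list and a fixed set of genes of interest. Further list members were named after their values were seen. The members, the lists and the tests were chosen with earlier results of these data known. P-values describe tumours picked by a measured value, and the spread between these mice. Alternatives were DESeq2 1.42.0, limma 3.58.1 on log2(RPKM + 1) and log2(RPKM + 0.1), RLE scaling, other filters, covariates, gene classes, choices of tumours and leaving out each of 9 tumours.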

Additional observations from a re-analysis of the deposited data

Results flagged for a closer look

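In the 6 stable tumours, 103 measures were examined for a single tumour far from the other 5 (Dixon's ratio above its 95% critical value), and 7 were found, where chance gives about 1 in 20. Stable tumour 3 had a pigment score of 1.55 against 3.66 to 4.41 in the others, with Pmel at 1.04 against 3.26 to 4.55 log2 CPM and Tyrp1 at 1.96 against 5.39 to 7.06 log2 CPM. Stable tumour 5 had 7.28% of its counts in mitochondrial ribosomal RNA against 1.31 to 2.83% in the others. The same tumour had the lowest Egfl7, 2.88 against 3.47 to 3.80 log2 CPM. It also had the highest Nudt18, 3.75 against 3.22 to 3.37 log2 CPM, and the highest Col18a1, 7.77 against 7.36 to 7.48 log2 CPM. Without stable tumour 5 the adjusted p was 0.0976 for Egfl7 and 0.0598 for Col18a1, and the log2 differences stayed positive.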

How the results depend on the processing

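The main test called 21 genes. The count was 239 with DESeq2 (21 of the 21 among them) and 44 with each library's protein-coding share added to the model (21 shared). It was 5 with the pigment score as a covariate (0 shared) and 0 with the mitochondrial ribosomal RNA share as a covariate. Neither measure overlaps between the groups, so neither fit can be read for or against any gene. The count was 4 when only the 9 tumours were fitted (0 shared) and 0 against a 2-fold change. Taking all 6 non-responders by label gave 2693, and 0 with the pigment score added. Without the 8 responders, an alternative chosen after seeing the data, 105 were called (20 shared). Leaving out 1 of the 9 tumours gave 0 to 233. Other settings gave 14 (no low-count filter), 16 (stricter filter), 20 and 27 (limma), 24 (RLE) and 31 (protein-coding genes only). In all 24 alternatives every one of the 21 genes that could be fitted was higher in the pigment-low tumours. The alternatives reuse the tumours in which the 21 were picked, so this shared direction adds no support. The medians of 9 lists changed sign under at least 1 alternative: the dedifferentiated melanoma, oxidative phosphorylation, alternatively activated macrophage, fibroblast and pericyte, collagen, skeletal muscle, keratinocyte, adipocyte and mitochondrial messenger RNA lists. The 3 lowest non-responders were the same tumours by RPKM and by scaled CPM, so those alternatives needed no fit. No paired analysis was possible because the replicate numbers follow record order and pair no tumours.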
